A study of Mus musculus with 4 samples.

Results

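Kruppel-like factors (KLFs) were followed through RNA sequencing of regulatory T cells (Treg cells), the CD4+ T cells that carry Foxp3 and restrain immune responses. The family set held 8 genes, Klf2, Klf3, Klf4, Klf6, Klf7, Klf10, Klf12 and Klf13, taken by symbol as the KLF genes known from T cells and found as 8 rows of a table of 27179 genes. The cells were CD4+Foxp3+ Treg cells of C57BL/6 mice at steady state, taken from the spleen together with peripheral lymph nodes, with 2 libraries labelled WT and 2 labelled P65KO, described as deficient in RelA (p65), a DNA-binding subunit of NF-kB. The sources used here do not give the allele, a Cre driver, the age of the mice or the number of mice behind a library. The comparison asks how KLF transcripts of Treg cells differ between libraries labelled WT and P65KO.

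KLF proteins are transcription factors that end in a DNA-binding part of zinc fingers, which read CACCC boxes and GC-rich boxes, as do the related SP factors. The parts before the zinc fingers differ between members and recruit coactivators or corepressors. In T cells Klf2 is the best known member: it keeps resting cells quiescent, drives the genes for lymph node homing and egress, and falls when the antigen receptor is engaged.

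Of the 8 members, 4 were higher in the P65KO libraries (Klf2, Klf4, Klf6 and Klf13), 2 were lower (Klf10 and Klf12) and 2 did not pass the test (Klf3 and Klf7). Klf2, the most abundant member, rose 1.71-fold, and Klf10, a TGF-beta inducible member, fell 1.67-fold. Klf13 and Klf6 rose 1.33-fold and 1.21-fold. Klf4 and Klf12 changed in opposite directions at 30 counts or fewer in any library. Over all 11172 genes tested, 20.7% passed the threshold, 9.0% higher and 11.7% lower, in edgeR's quasi-likelihood test with Benjamini-Hochberg adjustment at 0.05. The median log2 fold change of the members was 0.34, against 0.00 over all genes tested. Klf4 and Klf12 each reached the expression filter through the group in which they were high, so they could only enter the test with a difference. Among the other 6 members, 3 rose, 1 fell and 2 did not pass. CPM, the usual count unit relative to library size and here scaled by TMM, did not overlap between the groups for 7 of the 8 members, 5 higher and 2 lower in P65KO. Over all genes tested the groups did not overlap for 60.5%, with 29.7% higher and 30.9% lower.

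Promoter stretches of the abundant members that rose are shown here, because Klf2, Klf6 and Klf13 moved the same way. RefSeq promoter entries of GRCm38.p6 matched 7 of the 8 members, all but Klf10. Each line gives 200 bases on the gene's own strand, from 250 to 51 bases before the RefSeq start: chr8:72318812-72319011 on the plus strand for Klf2, chr13:5861239-5861438 on the plus strand for Klf6, and chr7:63938966-63939165 on the minus strand for Klf13. Capitals mark the GC box letters GGGCGG on either strand and, in Klf2, a match to the MEF2 consensus.
Klf2: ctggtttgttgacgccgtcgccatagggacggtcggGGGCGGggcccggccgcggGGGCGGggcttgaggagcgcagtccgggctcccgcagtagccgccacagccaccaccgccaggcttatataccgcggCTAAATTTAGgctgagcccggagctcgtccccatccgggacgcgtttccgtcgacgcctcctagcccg
Klf6: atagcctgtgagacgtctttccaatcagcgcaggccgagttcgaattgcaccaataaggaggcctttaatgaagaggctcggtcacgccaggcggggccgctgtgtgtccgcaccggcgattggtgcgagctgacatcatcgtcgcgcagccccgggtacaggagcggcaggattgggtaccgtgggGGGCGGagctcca
Klf13: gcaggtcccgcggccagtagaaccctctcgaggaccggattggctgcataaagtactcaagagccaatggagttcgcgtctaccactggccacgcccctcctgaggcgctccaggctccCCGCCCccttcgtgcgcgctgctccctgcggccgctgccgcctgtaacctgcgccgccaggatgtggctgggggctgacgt

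These stretches were GC-rich, at 70.5% for Klf2, 62.5% for Klf6 and 68.0% for Klf13, against a median of 51.5% over 27025 promoters of that length. The windows of Klf3 (79%), Klf4 (76.5%) and Klf7 (62%) were GC-rich too, and that of Klf12 stood at 51%. High GC was therefore not particular to the members that rose. GGGCGG stood in the windows of 6 of the 7 members, with 2 matches in Klf2 and 1 each in Klf6 and Klf13, and in 24.5% of all windows. The CACCC letters, searched on both strands, were present in Klf3 with 4 matches, Klf7 with 3 and Klf12 with 1, and in 43.9% of all windows. They were not in the windows of the 4 members that rose. The Klf12 window lies before a start at 100149796, well inside this minus-strand gene, whose RefSeq span begins at 100285891. Its matches therefore do not describe the stretch before the outermost start. The start used for Klf7, 64121389, also lies inside its span, which begins at 64122345 on the minus strand. MEF2 factors are the textbook activators of Klf2 downstream of the kinase ERK5. A match to their consensus began 118 bases before the start of Klf2 and read CTAAATTTAG, and 2.46% of all windows held a match. No window of the 7 members matched the NF-kB consensus, which 5.53% of all windows did. These matches describe letters in a short window and no binding was measured.

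The libraries held 4513863 to 4624230 counts each. For Rela itself the WT libraries held 875 and 806 counts, the P65KO libraries 820 and 909 (log2 0.07, SE 0.10; adjusted p = 0.662, edgeR quasi-likelihood with Benjamini-Hochberg). Exons that a deletion leaves in place still count towards Rela, so these counts do not check the label, and directions here are those of the libraries as labelled. Foxp3 stood at 377 and 371 CPM in WT and at 386 and 528 CPM in P65KO. It did not pass (adjusted p = 0.131, edgeR quasi-likelihood with Benjamini-Hochberg). Of 11 tested Treg identity genes, Il2ra rose, 4 fell and 6 did not pass. Ikzf2 fell from 442 and 484 CPM to 128 and 166 CPM, and Ctla4 from 264 and 273 CPM to 153 and 132 CPM. Tnfrsf18 and Cd3g fell as well, at log2 -0.47 and -0.27. Over all genes tested, 9.0% rose and 11.7% fell. The groups also differed in sex-linked transcripts. Xist had 494 and 608 counts in WT against 0 and 2 in P65KO, and Ddx3y had 0 in WT against 302 and 404. The RelA label and these sex-linked differences cannot be told apart in any result below. Of 14 tested myeloid and dendritic markers from a list of 17, 10 rose and 0 fell (edgeR quasi-likelihood, 4 others not past the threshold), a count that ran from 3 to 13 as single libraries were left out, and the summed level of all 17 was 201 and 269 CPM in WT and 1264 and 451 CPM in P65KO. Some of these markers, among them Clec4a2, passed the filter through P65KO alone and could only enter with a difference. In bulk RNA, more cells of a type and more RNA per cell cannot be told apart.

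**Figure D1:**
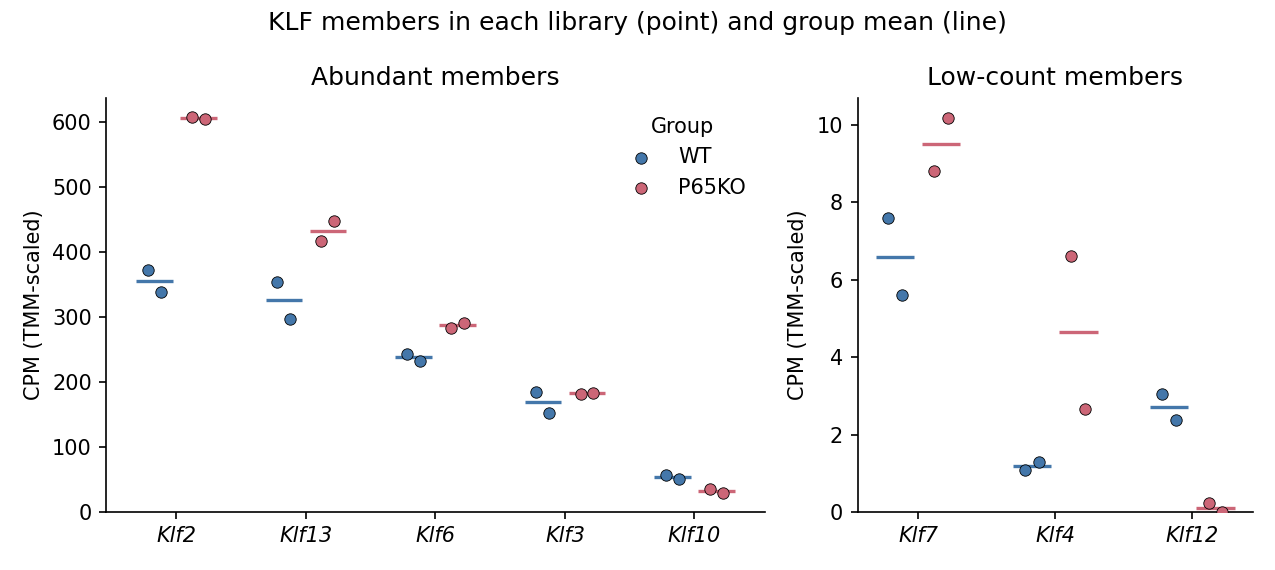
Level of each KLF member in CPM (TMM-scaled, linear axes from 0), with abundant members on the left and low-count members on the right. Points are single libraries, 2 WT in blue and 2 P65KO in red, and lines are group means. Klf2 shows the widest gap among the abundant members, at 355 against 606 CPM, while the WT and P65KO points of Klf3 overlap.

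Klf2 (LKLF; Entrez 16598; GRCm38 chromosome 8, 72319062 to 72321654) was counted 1717 and 1571 times in WT, against 2758 and 2730 times in P65KO. On the CPM scale these were 373 and 338 in WT and 608 and 605 in P65KO, so both P65KO libraries lay well above both WT libraries and close to each other. The mean rose from 355 ± 24.5 to 606 ± 2.62 CPM (SD, n = 2 each). The log2 fold change was 0.77 (SE 0.09, 95% interval 0.57 to 0.97; adjusted p = 7.75e-05, edgeR quasi-likelihood with Benjamini-Hochberg). Klf2 passed the threshold in all 10 other settings run, with log2 values from 0.71 to 0.84 and adjusted p of up to 0.0182. Klf2 differed 1.01-fold between the P65KO libraries, where the summed myeloid markers differed 2.80-fold, and the part of myeloid cells in the Klf2 rise was not tested. Klf2 is also an endothelial gene. Of 13 endothelial and stromal markers, Pecam1, which leukocytes carry too, rose by 0.59 on the log2 scale, in the same direction, from 175 and 140 CPM to 224 and 248 CPM (adjusted p = 0.00277, edgeR quasi-likelihood with Benjamini-Hochberg). The other 12 held at most 8 counts in any library, 6 of them 0 in all, and the part of endothelial cells was not tested.

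Klf13 (RFLAT-1, known as an activator of the chemokine gene Ccl5 in late T cell activation; Entrez 50794; chromosome 7, 63886351 to 63938915) stood at 354 and 297 CPM in WT and at 417 and 448 CPM in P65KO. The groups did not overlap, but the WT libraries differed 1.19-fold between themselves. Its log2 fold change was 0.41 (SE 0.10, 95% interval 0.19 to 0.63; adjusted p = 0.0128, edgeR quasi-likelihood with Benjamini-Hochberg). The call ended without WT replicate 2, at log2 0.30 (adjusted p = 0.133), without P65KO replicate 2, at 0.36 (0.109), and with no filter on low counts (0.119).

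Klf6, a widely expressed activator known as an early response gene, lies on chromosome 13 (Entrez 23849; 5861489 to 5870393). It stood at 244 and 233 CPM in WT and at 284 and 291 CPM in P65KO, with no overlap and little spread within either group. The log2 fold change was 0.27 (SE 0.09, 95% interval 0.08 to 0.46; adjusted p = 0.0465, edgeR quasi-likelihood with Benjamini-Hochberg), the smallest rise called among the members. It passed in 2 of 10 other settings, and its adjusted p ran from 0.0425 to 0.213 over them. In the fit with the replicate number as a block it did not pass (log2 0.27, adjusted p = 0.116, edgeR quasi-likelihood with Benjamini-Hochberg).

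Klf3 (BKLF, a repressor that recruits CtBP; Entrez 16599; chromosome 5, 64803521 to 64832901) stood at 184 and 153 CPM in WT and at 182 and 183 CPM in P65KO. The P65KO values lay between the WT values. The 95% interval of the fold was 0.924 to 1.27 (log2 0.11, SE 0.10; adjusted p = 0.501, edgeR quasi-likelihood with Benjamini-Hochberg), so a difference beyond those bounds was not seen and a smaller one could not be told from none. A noncoding gene on the opposite strand, Gm20033, spans an exon of Klf3 and held 7, 7, 5 and 2 counts, which is small beside the 710 to 850 counts of Klf3.

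Klf7, a member best known from the nervous system, is encoded on chromosome 1 (Entrez 93691; 64029448 to 64122345). WT libraries held 35 and 26 counts of it, and P65KO libraries 40 and 46. The groups did not overlap, but the log2 fold change of 0.53 (SE 0.29, 95% interval -0.10 to 1.15) did not pass (adjusted p = 0.231, edgeR quasi-likelihood with Benjamini-Hochberg). At this depth the interval of the fold, 0.933 to 2.22, holds both no change and a rise larger than that of Klf2. The noncoding genes Gm26649 and Gm13748 overlap Klf7 exons on the opposite strand, and whether the counting used strand is not known.

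Klf10 (TIEG1, induced by TGF-beta and tied to Foxp3 expression and Treg function; Entrez 21847; chromosome 15, 38291464 to 38300711) was counted 263 and 235 times in WT, against 158 and 133 times in P65KO. Its level was 57.1 and 50.6 CPM in WT and 34.8 and 29.5 CPM in P65KO, and every P65KO value lay below both WT values. The WT mean of 53.8 ± 4.60 CPM compared with 32.1 ± 3.81 CPM in P65KO (SD, n = 2 each), a fall on the log2 scale (-0.74, SE 0.13, 95% interval -1.04 to -0.45; adjusted p = 0.00184, edgeR quasi-likelihood with Benjamini-Hochberg). The call ended without WT replicate 1 (log2 -0.65, adjusted p = 0.0695) and with no filter on low counts (adjusted p = 0.0535), and it held in the 8 other settings.

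Within single libraries, Klf2 and Klf10 diverged. The ratio of Klf2 to Klf10 counts was 6.53 and 6.69 in WT and 17.5 and 20.5 in P65KO, a comparison that no scaling between libraries touches. Klf2 also gained on Klf3, from 2.02 and 2.21 times its counts in WT to 3.34 and 3.31 times in P65KO. Against Klf13, which rose as well, the ratio went from 1.05 and 1.14 to 1.46 and 1.35. With 2 libraries in each group an exact permutation test cannot go below p = 0.333, so these ratios are given as values.

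Klf12 (AP-2rep, a CtBP-recruiting repressor; Entrez 16597; chromosome 14, 99866181 to 100285891) was counted 14 and 11 times in WT, against 1 and 0 times in P65KO. The counts of both WT libraries were above both P65KO libraries, and the ratio of WT to P65KO was 24.4 (25 counts against 1; exact 95% interval 4 to 1004, counting error only). The fitted log2 fold change was -4.31 (adjusted p = 0.00539, edgeR quasi-likelihood with Benjamini-Hochberg), or -6.65 without P65KO replicate 1, which held the single count, and -3.46 without P65KO replicate 2. The call ended without WT replicate 1 (adjusted p = 0.0644, edgeR quasi-likelihood with Benjamini-Hochberg), with no filter (0.0652) and with DESeq2 (0.0736).

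Klf4, which restrains the cell cycle in T cells and is an identity factor of monocytes and epithelia, is encoded on chromosome 4 (Entrez 16600; 55527137 to 55532475). WT libraries held 5 and 6 counts of it, and P65KO libraries 30 and 12. Both P65KO libraries were above the WT libraries, but they differed 2.49-fold between themselves. The count ratio of P65KO to WT was 3.90 (42 counts against 11; exact 95% interval 1.98 to 8.41, counting error only), and the fitted log2 fold change was 1.94 (SE 0.57; adjusted p = 0.0288, edgeR quasi-likelihood with Benjamini-Hochberg). Without P65KO replicate 1 it was 1.14 and did not pass (adjusted p = 0.236). The call also ended without either WT library, with no filter, with DESeq2 and with limma-voom (adjusted p of 0.0681 to 0.212).

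Between the P65KO libraries, Klf4 varied in the same direction as the myeloid markers that rose. Klf4 and these markers were chosen for a rise, so their shared rise over WT is no sign of likeness. All 10 myeloid markers that rose were higher in P65KO replicate 1 than in P65KO replicate 2, by 1.49-fold to 3.29-fold. The 4 tested markers that did not pass were also higher in P65KO replicate 1. In P65KO replicate 2, however, S100a8 (2.66 CPM), S100a9 (10.2 CPM) and Cebpb (9.30 CPM) lay below both WT libraries. Fcgr3 (1.77 CPM) lay between the WT libraries there, while Klf4 lay above them. The macrophage and dendritic cell genes Itgax and Adgre1 stood at 94.2 and 46.8 CPM in P65KO replicate 1, at 48.5 and 25.0 CPM in P65KO replicate 2 and at no more than 7.53 CPM in WT. Among 8763 genes with a mean of at least 10 CPM, the profile nearest to that of Klf4 over the 4 libraries was Mpeg1, a perforin-like gene of macrophages, at a distance of 0.12 in centred log2 CPM. Next came Cd68 (0.20) and Itgam (0.28), both markers of myeloid cells, then Nedd4 (0.32) and Tmem176b (0.33). The part of such cells in the Klf4 difference was not tested. Klf4 was taken for this as the called member with the largest rise and Klf12 as that with the largest fall. The genes nearest to Klf12 were Jazf1 (0.22), Il9r (0.25), Rnase4 (0.31), Atp2b4 (0.33) and Nfil3 (0.33). These distances rest on 4 libraries.

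**Figure D2:**
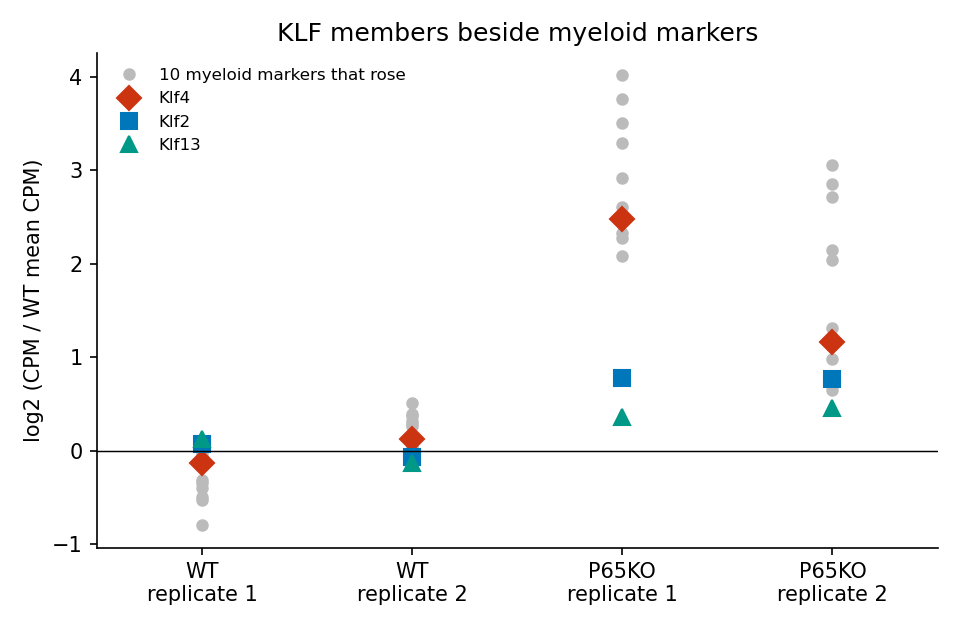
Klf4, Klf2 and Klf13 in each of the 4 libraries, as log2 of CPM over the WT mean, beside the 10 myeloid markers that rose (grey points, 1 per gene). Klf4 lies among the grey points in both P65KO libraries. The grey genes and Klf4 were chosen for a rise, so their shared height above WT was set by that choice. Klf4 drops from P65KO replicate 1 to P65KO replicate 2 by 2.49-fold, while Klf2 stays level at 608 and 605 CPM.

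**Figure D3:**
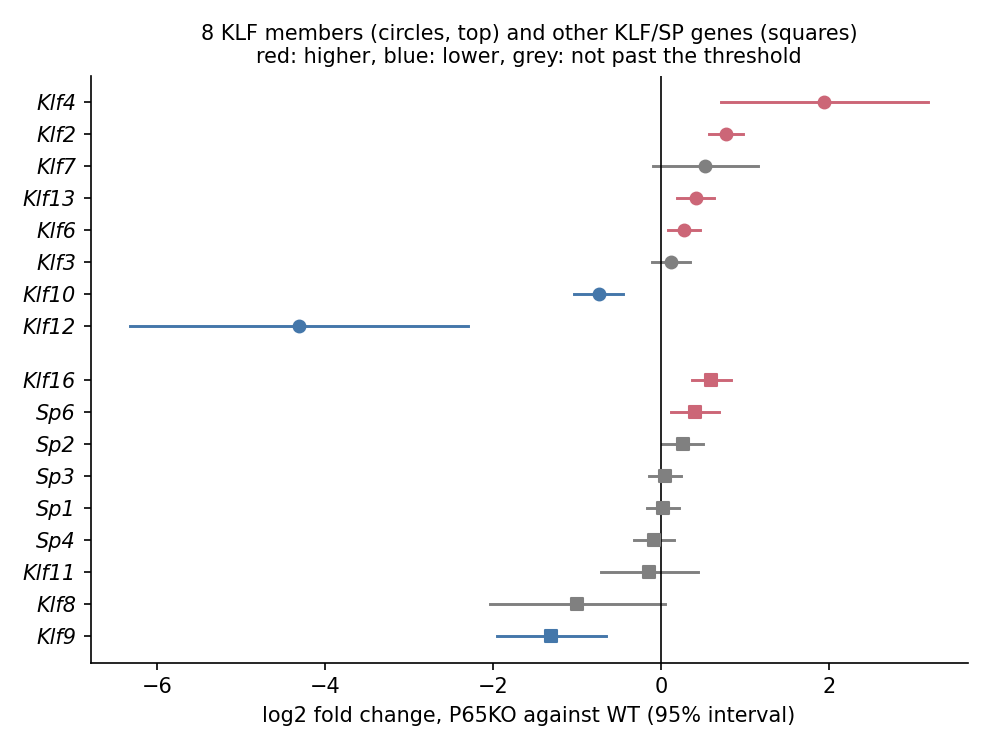
Log2 fold change of P65KO against WT with its 95% interval for the 8 members (circles) and for the 9 tested genes among the other KLF and SP genes (squares). Red and blue mark genes past the threshold, and grey marks genes that did not pass. The intervals of Klf4 and Klf12 are wide. Those of all members past the threshold, Klf4 and Klf12 among them, lie to one side of 0.

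Levels between members were compared per length, on the authors' RPKM scale (reads per kilobase and per sequencing depth, not scaled between libraries). Klf2 led in every library, at 210 and 188 RPKM in WT and 330 and 325 RPKM in P65KO. Klf3 followed at 66.6 to 81.4 RPKM over the 4 libraries. Klf6 (55.6 to 67.3 RPKM) and Klf13 (46.9 to 68.4 RPKM) came next and overlapped each other within each group. Klf10 stood at 19.2 and 16.8 RPKM in WT and 11.3 and 9.48 RPKM in P65KO, and Klf7 at 4.27 to 7.48 RPKM. Klf4 and Klf12 were lowest: their values overlapped in WT, and in P65KO Klf4 was the higher, at 2.18 and 0.888 RPKM against 0.0568 and 0.0188 RPKM. The last of these Klf12 values came from 0 counts, so it is set by the authors' offset.

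The place of Klf3 and Klf7 in this order depends on gene length. The lengths implied by the deposited values were 2314 bases for Klf3 and 1344 for Klf7, while the exons of all GENCODE M21 transcripts together cover 11243 and 8131 bases. For the other 6 members the exon cover was at most 1.37 times the length used. Divided by the GENCODE length, the same counts gave Klf3 15.2 RPKM in WT, below Klf6 at 55.0 and Klf13 at 43.9 RPKM. If the counts cover only the shorter lengths, reads in the other exons are missing. The GENCODE values of Klf3 and Klf7 would then be too low, so this order is no firmer than the first. Fold changes of a gene between groups do not depend on the length used, but they cover only the exons that were counted.

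The 8 members together gave 432 and 379 RPKM in WT and 559 and 556 RPKM in P65KO. Klf2 made up 48.5% and 49.6% of that sum in WT and 59.1% and 58.5% in P65KO. The mean sum differed by 152 RPKM between the groups, and the difference in Klf2, 129 RPKM, was 85.0% of it. The share of Klf10 went from 4.43% in both WT libraries to 2.03% and 1.71%, and that of Klf3 from 18.8% and 17.6% to 13.9% in both P65KO libraries. These shares use the authors' lengths. As a share of the members' CPM, which is not per length, Klf2 stood at 30.5% and 31.3% in WT and 39.5% and 38.6% in P65KO, and it made up 62.3% of the family difference of 403 CPM. On GENCODE exon lengths its share was 60.0% and 60.5% in WT and 69.0% and 68.4% in P65KO, with 87.6% of the difference. These GENCODE values carry the limit on Klf3 and Klf7 given above. Klf2 had the larger share in P65KO on all 3 scales.

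**Figure D4:**
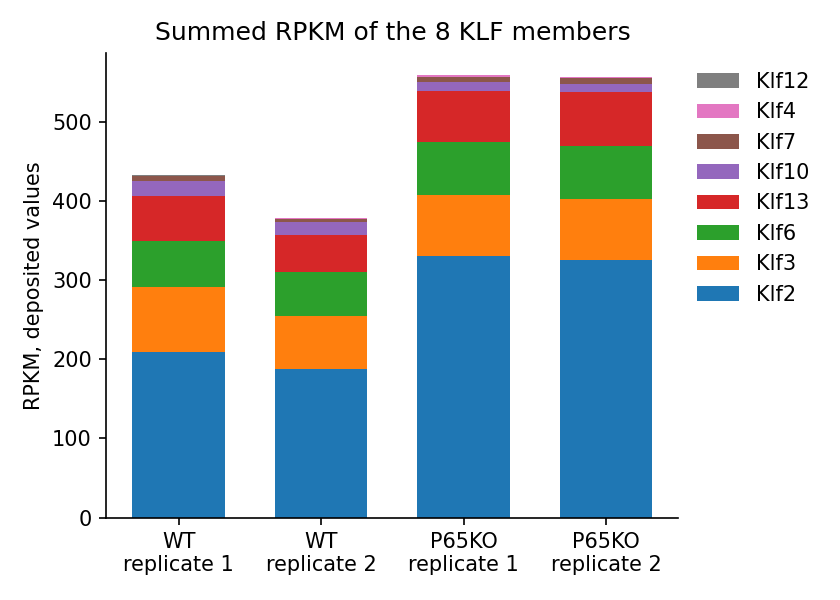
Stacked deposited RPKM of the 8 members in each library, from 0. The P65KO bars reach 559 and 556 RPKM against 432 and 379 RPKM in WT, and most of the added height on this scale lies in the Klf2 segment at the base.

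Other genes of the family were given by a list of 18 KLF and SP genes. Of these, 9 were tested, 2 rose, 1 fell and 6 did not pass, with a median log2 fold change of 0.03. Among all genes tested, 9.0% rose and 11.7% fell. Klf16, a GC box repressor, rose from 51.2 and 49.1 CPM to 74.3 and 77.3 CPM (log2 0.60, SE 0.11; adjusted p = 0.00160, edgeR quasi-likelihood with Benjamini-Hochberg) and passed in all 10 other settings. Klf9, a glucocorticoid-responsive member, fell from 10.9 and 9.47 CPM to 3.97 and 4.21 CPM (log2 -1.31, SE 0.30; adjusted p = 0.00815, edgeR quasi-likelihood with Benjamini-Hochberg). That call ended with DESeq2 and without either WT library (adjusted p of up to 0.109). Sp6 was 1.32-fold higher (adjusted p = 0.0473), in 2 of 10 other settings. The general factors Sp1 and Sp3 stood at log2 0.03 and 0.05, Sp2 and Sp4 at 0.25 and -0.09, and Klf8 and Klf11 at -0.998 and -0.14, none past the threshold. Sp1 changed sign, to -0.021, when libraries were scaled by their totals alone. Of the 9 genes not tested, 7 had 0 counts in every library, where 3 counts would be 0.646 to 0.664 CPM. The erythroid factor Klf1 had 1, 1, 5 and 0 counts and Klf5 had 2 counts in P65KO replicate 1 only.

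Regulators that textbooks place upstream of Klf2 rose in 4 of 8 tested cases and fell in none (edgeR quasi-likelihood, median log2 0.40). The shares over all genes tested were 9.0% higher and 11.7% lower. Foxo1, a factor that drives Klf2 in resting T cells, rose 1.35-fold, from 442 and 375 CPM to 514 and 591 CPM. Mef2d and Mef2a rose 1.37-fold and 1.48-fold. These 3 calls ended with no filter, without WT replicate 2 and without P65KO replicate 2, at adjusted p of up to 0.162. Mef2d and Mef2a also lost theirs without WT replicate 1, and Mef2a with DESeq2, so that Foxo1 passed in 7, Mef2d in 6 and Mef2a in 5 of 10 other settings. Mef2c, also a B cell and myeloid gene, went from 2 and 3 counts to 40 and 13, again higher in the library with more myeloid transcripts, and lost its call with no filter and without either WT library (adjusted p of up to 0.120). Mef2c passed the expression filter through P65KO alone, so it could only enter the test with a difference. Without it the rises are the 3 of Foxo1, Mef2d and Mef2a. Of 4 ubiquitin ligases that act on KLF proteins, Wwp1, which targets KLF2 protein, fell 1.51-fold and Smurf1 rose 1.28-fold. Wwp1 passed in 5 and Smurf1 in 2 of 10 other settings. Of 10 tested corepressors and coactivators, the acetyltransferase gene Kat2b rose 1.57-fold and 9 did not pass. Its call ended without WT replicate 1 and with no filter (adjusted p of up to 0.0788).

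Genes for homing and egress that depend on Klf2 in T cells were also read. The egress receptor gene S1pr1 rose from 678 and 607 CPM to 1109 and 1295 CPM, and Ccr7, the lymph node homing receptor gene, rose from 396 and 400 CPM to 747 and 759 CPM. For both genes the P65KO libraries stood above the WT libraries, and each passed in all 10 other settings. S1pr4, another receptor for sphingosine 1-phosphate, and Itgb7, an integrin chain of gut homing, did not pass, at log2 0.11 and 0.03 (adjusted p = 0.430 and 0.876, edgeR quasi-likelihood with Benjamini-Hochberg). Cd69, which opposes S1PR1 on the surface, fell 1.36-fold and passed in 5 of 10 other settings. Of the chemokine receptor genes of effector and follicular T cells, Cxcr3 fell from 213 and 243 CPM to 29.6 and 21.9 CPM and Cxcr5 from 202 and 165 CPM to 47.4 and 41.0 CPM. Ccr6 fell 4.91-fold and Ccr3 4.67-fold. No measurement here links any of these genes to KLF2 protein.

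Of 12 tested quiescence genes, 1 rose, 1 fell and 10 did not pass, with a median log2 of 0.00. For this list and the next, the shares over all genes tested were 9.0% higher and 11.7% lower. Foxp1, a quiescence factor, rose 1.46-fold, and Cdkn2c (p18INK4c) fell 2.56-fold. The call of Foxp1 ended with no filter, and both ended without WT replicate 2 (adjusted p of 0.0567 for Cdkn2c and up to 0.0821 for Foxp1). Among 10 cell cycle drivers that KLF2 and KLF4 oppose in other settings, 4 rose and 0 fell (edgeR quasi-likelihood, 6 others not past the threshold). Ccnd1 (cyclin D1) went from 16 and 24 counts to 233 and 164, a 10.1-fold rise, and it too was higher in P65KO replicate 1. Ccnd3, Myc and Ccnd2 rose 1.43-fold, 1.46-fold and 1.28-fold. Ccnd1 and Ccnd3 passed in all 10 other settings, Myc in 8 and Ccnd2 in 5.

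Of 9 tested genes of the TGF-beta pathway in which KLF10 acts, 2 rose and 1 fell, beside 9.0% and 11.7% of all genes tested. Tgfbr1, a receptor chain, fell by 0.59 on the log2 scale, from 222 and 227 CPM to 152 and 147 CPM, and passed in all 10 other settings. Smad7, an inhibitor of the pathway that KLF10 is known to repress, rose 1.34-fold, from 60.8 and 63.9 CPM to 83.4 and 83.7 CPM. The pathway repressor gene Ski rose 1.26-fold. Smad7 passed in 4 and Ski in 6 of 10 other settings. Of 3 tested genes tied to KLF6 and KLF13, Ccl5 fell 3.59-fold and Bcl2l1 1.55-fold, while Tgfbr3 rose 2.12-fold. Ccl5 therefore went down, from 59.0 and 77.5 CPM to 24.7 and 13.3 CPM, in the libraries where Klf13 was higher.

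**Figure D5:**
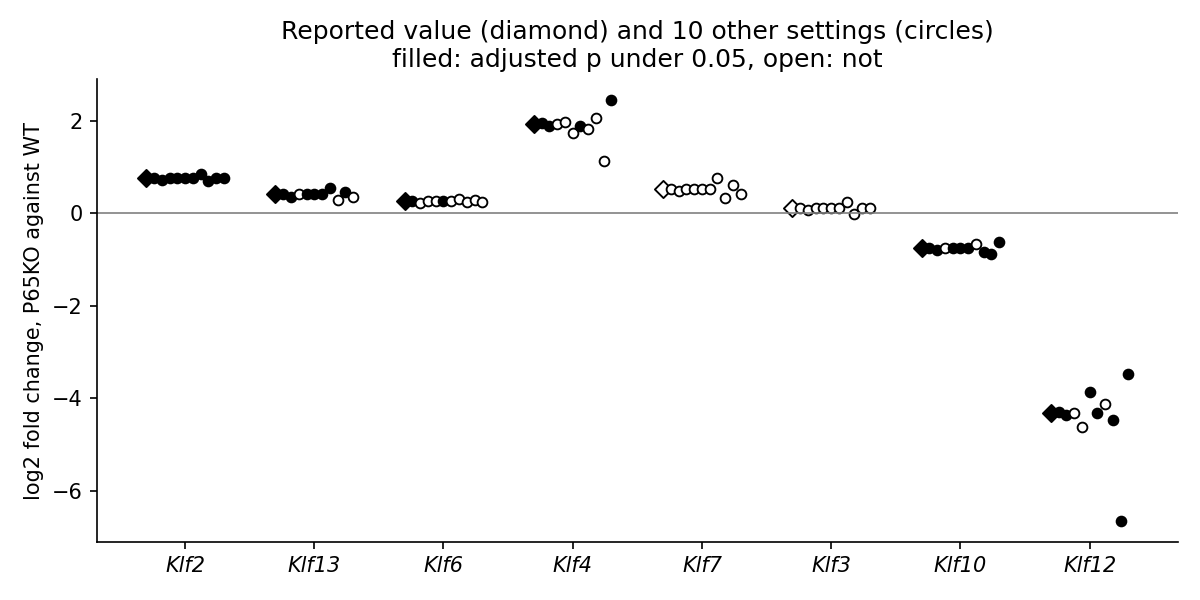
Log2 fold change of each member in the reported fit (diamond) and in 10 other settings (circles), filled where the adjusted p was under 0.05. All points of Klf2 are filled and lie between 0.71 and 0.84, those of Klf6 are mostly open, and those of Klf12 spread from -6.65 to -3.46.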

How the data were processed

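RNA sequencing libraries of Treg cells, 2 WT and 2 P65KO, were compared. Groups and replicate numbers came from sample titles. Whether replicates are separate mice is not labelled, and p-values then measure only a spread between libraries that may be technical. The deposited values, made by the authors, are raw counts for each Entrez gene and log2 RPKM values per library, and Subread, featureCounts and limma with build GRCm38 (mm10) are named in the submitters' processing notes. The sources used here do not give versions, annotation or strand setting.

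A filter on low counts (filterByExpr; minimum count 10, minimum total 15) was applied, libraries were scaled by TMM, and edgeR 4.0.16 (R 4.3.3) was used for the two-sided quasi-likelihood F test, with Benjamini-Hochberg adjustment over all 11172 genes tested. A gene rose or fell only at adjusted p under 0.05. Some listed genes low in WT, among them Mef2c, Clec4a2 and Alas2, passed the filter through P65KO alone and could only enter with a difference. SE is the log2 fold change divided by the square root of F. DESeq2 1.42.0 and limma 3.58.1 served as alternatives. Totals of 4513863 to 4624230 counts put 3 counts at 0.646 to 0.664 CPM. Intervals on counts cover counting error only.

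The members, the gene lists and the tests were chosen with earlier results of these data known. All members were named, with the 5 genes nearest in profile to Klf4 and to Klf12. Of each list of regulators and linked genes, up to 4 genes past the threshold with the largest changes were named. Of the identity, marker and sex-linked lists only some genes were named. Some genes of the homing and chemokine receptor lists are not reported here, nor are those lists' counts. Of the identity and marker lists, Treg identity genes rose in 1 and fell in 4 of 11 tested, B cell markers fell in 2 of 2, CD8 markers passed in 0 of 2, NK and innate markers rose in 2 and fell in 1 of 5, erythroid and platelet markers rose in 5 of 5, and Pecam1 was the single endothelial or stromal marker tested and rose. Sex-linked genes rose in 4 and fell in 1 of 5. Of all genes tested, 9.0% rose and 11.7% fell. On simulated counts for this comparison (11172 genes), the fit recovered 40.3% of 1.5-fold, 82.1% of 2-fold and 97.0% of 4-fold changes, with 2 false calls of 148. Only 67, 67 and 66 genes were changed at these folds, against 2310 genes called in the data. The counts were drawn without the added quasi-likelihood spread, so these rates need not hold for the data. Sequences are from RefSeq (GRCm38.p6) and exon lengths from GENCODE M21.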

Additional observations from a re-analysis of the deposited data

How the results depend on the processing

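Klf2 kept its direction and its call in all 10 other settings, and Klf7 stayed below the threshold in all of them. Of 80 values of the 8 members, 57 kept direction and side of the threshold, 22 lost the call and 1 changed sign. With no filter on low counts, 1 member was higher and 0 lower (edgeR quasi-likelihood, 4 and 2 at an unadjusted p under 0.05), 771 genes passed, and Klf4 (1.94), Klf6 (0.27), Klf10 (-0.74), Klf12 (-4.31) and Klf13 (0.41) lost their calls. With DESeq2, 2 were higher and 1 lower, 1318 genes passed, and Klf4 (1.97), Klf6 (0.28) and Klf12 (-4.61) lost theirs. Klf4 lost its call with limma-voom (1.74) and Klf6 with library totals alone (0.22). Of these losses the cause was not tested.

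Leaving out a library at a time gave 1 to 2 members higher, 0 to 2 lower and 916 to 1676 genes called (919 and 916 without the first and the other WT library). The member ranges in log2 were -0.013 to 0.26 for Klf3, which was negative without WT replicate 2, 1.14 to 2.45 for Klf4, 0.24 to 0.31 for Klf6 (called in none of the 4), -0.87 to -0.63 for Klf10, -6.65 to -3.46 for Klf12 and 0.30 to 0.54 for Klf13. A group left with 1 library is assumed to vary like the other. Signs also changed for genes not called: Klf11 (range -0.41 to 0.20) and Sp4 (-0.21 to 0.056) without WT replicate 1, Rela (-0.0066 to 0.15) without P65KO replicate 2 and Sp1 (-0.021) with library totals.

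With the replicate number as a block, 3 members were higher, 2 lower and 2319 genes passed, and Klf6 (0.27) lost its call. Deviations from the group means correlated at -0.137 between same-numbered libraries and at 0.137 between the others, over 11172 genes. With 2 libraries in each group, the second value is always the first with its sign changed, so these are 1 observation. With the crossed pairing, added after seeing the data, 4 were higher, 2 lower and 2973 genes passed.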
